A study of Mus musculus with 30 samples.

Results

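MHC class II antigen presentation was examined through 10 genes, chosen by symbol, in the ventral prostate (VP) of mice fed 3 kinds of fat. They are the chains of the classical class II molecules (H2-Aa, H2-Ab1 and H2-Eb1), the chains of the peptide editor H2-M (H2-DMa, H2-DMb1 and H2-DMb2), the chains of its inhibitor H2-O (H2-Oa and H2-Ob), the invariant chain Cd74 and the transactivator Ciita. All 10 were found among the 39179 gene identifiers of the count tables, and all 10 had counts in every mouse. Male C57BL/6 mice, not genetically modified, received normolipidic diets from weaning, and the diets differed in their fat, which was linseed oil (LO group, rich in ω-3 fatty acids), soybean oil (SO group, rich in ω-6 fatty acids) or pork fat, that is lard (PF group, rich in saturated fatty acids). The VP was taken after 12 or 32 weeks, which gave 6 groups of 5 mice and 30 libraries, and no group had a standard chow. A group after 32 weeks differs from its 12 week counterpart in age as well as in time on the diet, and the 2 cannot be told apart. The labels give no processing batch, so a batch difference between the time points could not be told apart from them either. The question asked of these genes is how far their RNA in the gland differed with the fat and with the time on it.

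Class II molecules carry peptides from proteins taken up by endocytosis to the cell surface, where CD4+ T cells read them. An α and a β chain assemble on the invariant chain CD74, which blocks the groove until proteases cut it in the endosome, then H2-M exchanges the remaining fragment for a peptide, and H2-O holds H2-M back, mainly in B cells. Dendritic cells, B cells and macrophages make these molecules constitutively, and many other cells, epithelium included, can make them after interferon-γ, in each case through CIITA, which binds no DNA itself and is brought to the promoters by factors sitting on the X and Y boxes.

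Of the 10 genes, 8 lie in the class II region of chromosome 17 (GRCm38.p6), between H2-Oa at chr17:34092340-34095234 and H2-Eb1 at chr17:34305867-34316674. H2-DMa (chr17:34119541-34139101), H2-DMb2 (chr17:34143307-34151555), H2-DMb1 (chr17:34153072-34160230), H2-Ob (chr17:34238903-34254414), H2-Ab1 (chr17:34257689-34269419) and H2-Aa (chr17:34282744-34287823) lie between them, and H2-Aa alone is on the minus strand. Ciita lies at chr16:10480059-10528418 and Cd74 on another chromosome. RefSeq promoters on GRCm38.p6, from 250 bases before to 50 bases after a start site, were at hand for 7 of the 10 genes. H2-Ab1, Cd74 and Ciita had no entry. The promoters of 5 genes held the core of the X box (GNAAC, N being any base) 28 to 31 bases before a Y box (TGATTGG), counted from first base to first base. The stretches that hold them are shown 5′ to 3′ on the gene's strand because these boxes are the known docking sites of the CIITA system, with both motifs in capitals.

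H2-Aa: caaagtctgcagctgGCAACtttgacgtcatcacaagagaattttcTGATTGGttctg
H2-Eb1: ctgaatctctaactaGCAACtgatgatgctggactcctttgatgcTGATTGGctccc
H2-DMb1: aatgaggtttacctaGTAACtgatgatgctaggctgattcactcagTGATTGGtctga
H2-DMb2: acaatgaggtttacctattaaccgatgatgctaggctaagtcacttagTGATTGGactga
H2-Oa: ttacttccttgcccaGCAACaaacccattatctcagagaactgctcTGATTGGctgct
H2-Ob: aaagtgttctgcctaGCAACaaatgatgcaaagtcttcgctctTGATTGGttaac

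They lie at chr17:34287862-34287919 (minus strand) for H2-Aa and, on the plus strand, at chr17:34305761-34305817 for H2-Eb1, chr17:34153082-34153139 for H2-DMb1, chr17:34145109-34145168 for H2-DMb2, chr17:34092288-34092345 for H2-Oa and chr17:34238803-34238857 for H2-Ob. The pair began 81 bases before the start in H2-Aa, 91 in H2-Eb1, 94 in H2-DMb1, 76 in H2-Oa and 87 in H2-Ob. H2-DMb2 had the Y box, 92 bases before the start, without these X letters, and H2-DMa had neither in its window. Among 32851 promoters of 300 bases, 7.82% held the Y box on either strand and 0.715% held the pair with 20 to 45 bases between the first bases, a spacing at which the motifs do not overlap. The motifs and the spacing were set after the members' promoters had been read. A match is a description of letters, and RefSeq's start lies inside the span GENCODE gives the gene for H2-Oa, H2-DMb1, H2-DMb2 and, barely, H2-Ob.

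**Figure D1:**
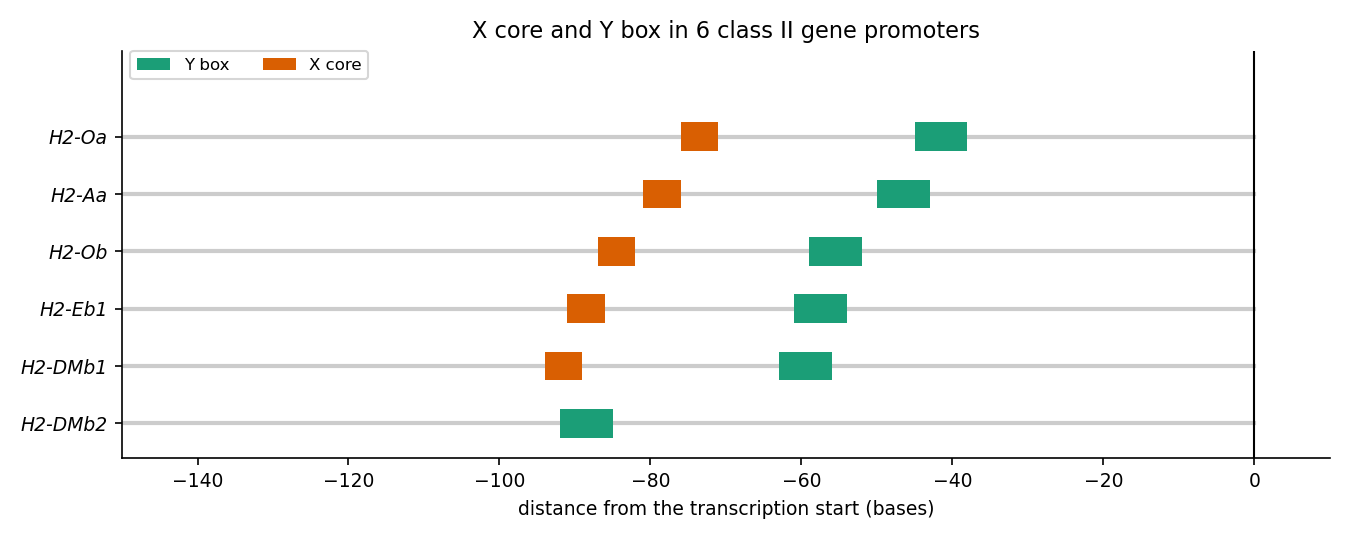
Position of the X core (GNAAC) and the Y box (TGATTGG) in the RefSeq promoter windows of the class II genes, in bases from the start site. In H2-Aa, H2-Eb1, H2-DMb1, H2-Oa and H2-Ob the X core starts 28 to 31 bases before the Y box, and H2-DMb2 has the Y box alone.

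The libraries held 27590631 to 41301707 counts on genes, and levels are given as CPM, counts scaled to a common library size after TMM normalisation. The tissue label held, since 9 prostate epithelial markers summed to 107702 to 336352 CPM and 4 seminal vesicle markers to at most 0.276 CPM. Adipocyte markers varied from 4.79 to 398 CPM between glands. The 6 mice numbered 1 stood apart from the other 24 on the first principal component of all genes within groups, which held 20.3% of the variance (scores of 25.6 to 55.8 against −33.8 to 22.6), and comparisons were repeated without them. In bulk RNA of a whole gland, fewer cells that express class II and less class II RNA per cell cannot be told apart.

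Per kilobase of exon, Cd74, the invariant chain, was the most abundant member, at 104 ± 43.6 CPM (SD, n = 30 mice of 6 groups), from a gene at chr18:60803848-60812652. The classical chains followed, with H2-Eb1, a β chain, at 43.1 ± 19.1, H2-Aa, an α chain, at 29.7 ± 13.4, and its partner H2-Ab1 at 25.8 ± 11.2 CPM per kilobase. The peptide editor was lower, at 6.01 ± 1.67 for H2-DMb1, 2.82 ± 0.659 for H2-DMa and 1.35 ± 1.24 CPM per kilobase for H2-DMb2. The inhibitor chains H2-Ob (0.573 ± 0.65) and H2-Oa (0.486 ± 0.394) and the transactivator Ciita (0.36 ± 0.21) were lowest. Most neighbours in this order kept it in 30 of 30 mice, but H2-Aa exceeded H2-Ab1 in 24, H2-DMa exceeded H2-DMb2 in 28, H2-Oa exceeded Ciita in 24 and H2-Ob exceeded H2-Oa in 15 mice. H2-Ob and H2-Oa therefore had no order between them beyond their spread. H2-Ea-ps, the class II α pseudogene of this strain, had 1 count over all 30 mice, so that H2-Eb1 RNA was present almost without RNA of its α partner, as is known for C57BL/6 mice.

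The counts per gene differed widely, which limits the low members. Cd74 had 2189 to 11594 counts per mouse and H2-Aa 1291 to 8831, whereas Ciita had 32 to 335, H2-DMb2 21 to 392, H2-Ob 21 to 604 and H2-Oa 4 to 95. Some bases of the exons are shared with other genes, and read pairs falling there can be lost or assigned to either gene. Of the 100-base windows of H2-DMb1, 11.3% were identical to H2-DMb2, and 10.3% of those of H2-DMb2 to H2-DMb1. H2-DMa shared 6.58% with Brd2, H2-Oa 8.98% with BC051537 and Ciita 0.324% with Dexi, which overlap them on the opposite strand, and the strand setting of the counting is not given in the sources used here. Of the 4 genes that overlap H2-DMa, CR974462.3 lies on the same strand, as Mir5107 does for Cd74, and such overlaps do not depend on the strand setting. No window of H2-Aa, H2-Ab1, H2-Eb1, H2-Ob or Cd74 was shared, although Gm20513 overlaps H2-Eb1 on the opposite strand.

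After 12 weeks the classical chains were lowest on average and most even in the SO group and high in 4 of the 5 PF mice. H2-Aa, the α chain of the A molecule, reached 56.9, 59.5, 54.4, 54.8 and 65.4 CPM in SO mice 1 to 5, 111, 145, 172, 143 and 68.9 in PF mice, and 67.5, 40.8, 56.8, 118 and 94.3 in LO mice. All PF mice were above all SO mice, PF mouse 5 by little, and LO mice fell on both sides of the SO range. H2-Ab1, the β chain of the same molecule, reached 41.1, 32.6, 32.5, 30 and 37.1 CPM in SO, 78.7, 92.1, 98.1, 87.5 and 37.9 in PF, and 52.6, 21.4, 33.1, 65.4 and 52.0 in LO mice. H2-Eb1, the β chain of the E molecule, reached 48.5, 43.2, 37.7, 40.7 and 45.8 CPM in SO, 83.5, 109, 123, 103 and 45.3 in PF, and 55.8, 29.4, 44.2, 90.4 and 68.3 in LO mice. PF mouse 5 lay inside the SO range for both β chains, the other 4 PF mice lay above it, and LO mice 2 and 4 were the lowest and highest of their group for all 3 chains. The coefficient of variation of H2-Aa was 7.76% among SO, 30.8% among PF and 40.8% among LO mice.

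Cd74 and Ciita followed the same mice. Cd74 reached 94.8, 93.5, 80.2, 89.9 and 114 CPM in SO, 173, 244, 296, 225 and 97.2 in PF, and 118, 69.1, 98.7, 181 and 135 in LO mice after 12 weeks. Ciita, the transactivator of all these genes, reached 1.31, 1.45, 1.25, 1.26 and 1.95 CPM in SO, 4.84, 5.68, 5.52, 3.73 and 1.56 in PF, and 2.69, 1.01, 1.51, 4.42 and 2.34 in LO mice. For both genes 4 PF mice exceeded every SO mouse and PF mouse 5 did not.

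The peptide editor and its inhibitor had smaller or less even differences. H2-DMa, its α chain, reached 9.69, 7.14, 6.75, 6.77 and 9.28 CPM in SO, 12.5, 10.7, 11.4, 15 and 7.63 in PF, and 9.62, 6.85, 7.77, 9.58 and 8.11 in LO mice after 12 weeks. H2-DMb1, a β chain, reached 7.85, 7.11, 5.96, 6.4 and 8.11 CPM in SO, 11.8, 10.7, 12.4, 14.1 and 7.14 in PF, and 8.8, 6.98, 7.01, 8.82 and 8.45 in LO mice. Again only PF mouse 5 fell within the SO range. H2-DMb2, the second β chain, reached 0.905, 0.8, 0.889, 0.827 and 1.51 CPM in SO, 2.41, 6.24, 4.4, 0.911 and 1.19 in PF, and 1.13, 0.663, 1.04, 3.33 and 1.61 in LO mice. H2-Ob, the β chain of H2-O, reached 0.771, 1.05, 1.22, 0.643 and 0.989 CPM in SO, 1.35, 8.65, 4.47, 1.82 and 1.1 in PF, and 0.691, 1.07, 0.791, 5.02 and 2.31 in LO mice. H2-Oa, its α chain, reached 0.335, 0.369, 0.263, 0.184 and 0.349 CPM in SO, 0.596, 1.88, 0.839, 0.607 and 0.231 in PF, and 0.409, 0.126, 0.324, 1.43 and 0.365 in LO mice. In these 3 genes PF mouse 2 and LO mouse 4 were the highest of their groups, and the groups overlapped. Over the 10 members, LO mouse 4 was the highest LO mouse in 9 and PF mouse 5 the lowest PF mouse in 9.

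**Figure D2:**
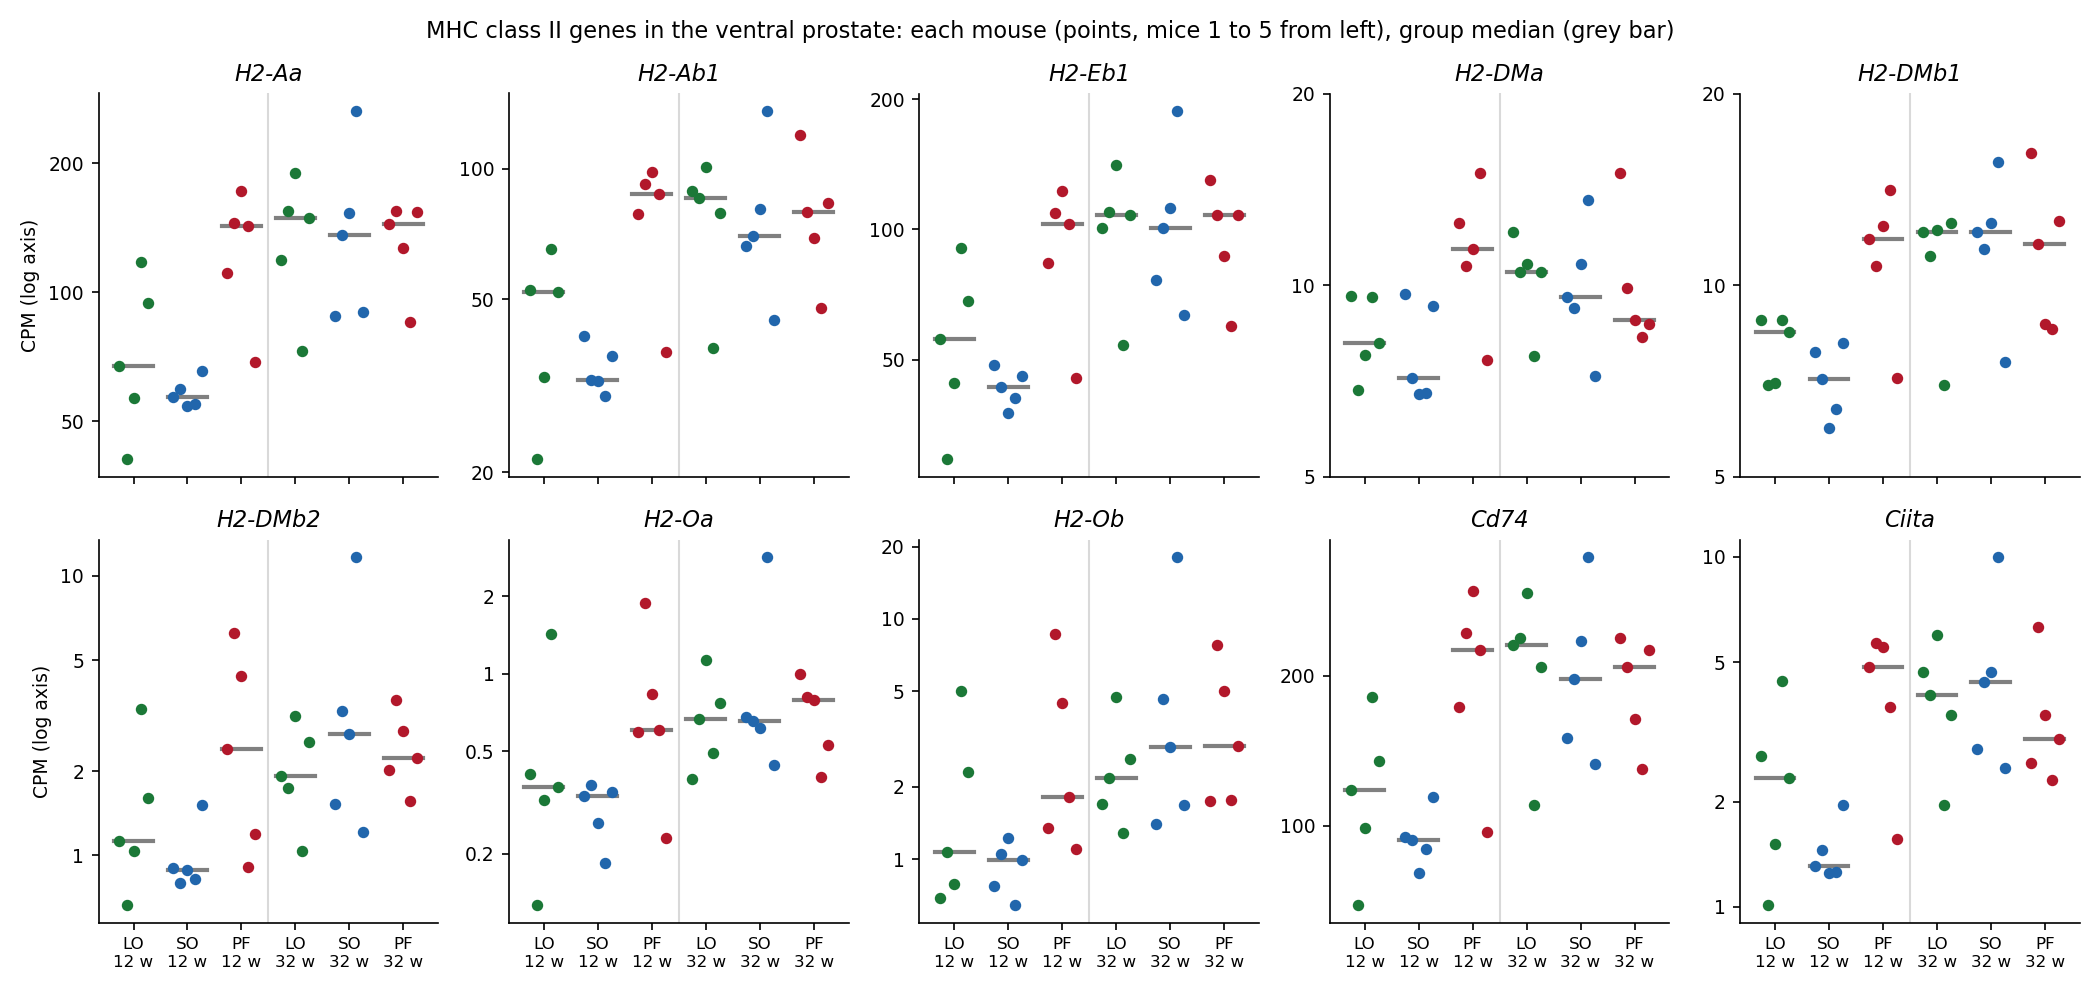
Level of each class II gene in CPM (log axis) in every mouse, by diet and time point, with points for mice 1 to 5 from left to right and a grey bar at the group median. The SO group after 12 weeks is the lowest and narrowest for most genes, and SO mouse 4 after 32 weeks is the highest mouse of its group in all 10 panels.

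Compared to SO, PF mice after 12 weeks had higher values of all 10 members, but none passed edgeR's quasi-likelihood test with Benjamini-Hochberg adjustment over 15873 genes. The test called 0.0% of all genes in this comparison, so the members' count of 0 of 10 equals the background. All 10 had an unadjusted p under 0.05 in the direction of PF, where 6.14% of all genes did, and their median log2 fold change was 1.17 against −0.01 over all genes. H2-Ob had the widest difference, 1.90 ± 0.631 (SE) as a log2 fold change with adjusted p = 0.298 in edgeR, followed by H2-DMb2 at 1.62 ± 0.518 and Ciita at 1.57 ± 0.376 (adjusted p = 0.142 with edgeR). H2-Ab1 (1.19 ± 0.27), H2-Aa (1.14 ± 0.259), Cd74 (1.14 ± 0.265) and H2-Eb1 (1.11 ± 0.271) differed by about the same amount on the log2 scale. H2-DMb1 (0.67 ± 0.152) and H2-DMa (0.53 ± 0.162) differed least on the log2 scale. Adjusted p ranged from 0.138 to 0.478 over the 10 genes in edgeR. Only H2-Aa separated the groups completely, which 1.13% of all genes did with PF on the higher side.

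The DESeq2 Wald test on the same counts gave a different count. It called 6 of 10 members up-regulated in PF mice (Cd74, Ciita, H2-Aa, H2-Ab1, H2-DMb1 and H2-Eb1), with DESeq2 adjusted p from 0.00351 to 0.00804, where it called 1.27% of 17232 genes higher in PF. The edgeR count also turned on 1 library. Without PF mouse 5 it was 6 of 10, the same 6 genes that DESeq2 called with all mice, against a background of 0.812%, and the median log2 fold change was 1.34.

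Compared to LO, PF mice after 12 weeks had 0 of 10 members past edgeR's adjusted threshold (background 0.0%), with 7 of 10 at an unadjusted p under 0.05 and higher in PF, where 4.31% of all genes were. The median log2 fold change was 0.77, from 0.45 ± 0.162 (SE) for H2-DMa to 0.96 ± 0.503 for H2-DMb2. DESeq2 called 0 of the 9 members to which it gave an adjusted p (background 0.522%). In LO compared to SO mice, 0 of 10 passed edgeR's adjusted test (background 0.0%) and 0 of 10 had an unadjusted p under 0.05 (background 4.28%), although all 10 fold changes were above 0, with a median of 0.40 on the log2 scale. DESeq2 called 0 of 10 there (background 0.0%). Without LO mouse 4 that median was 0.16. For H2-Aa the log2 difference of LO from SO was 0.38 with a 95% interval of −0.12 to 0.88. For Ciita it was 0.74 with an interval of 0.01 to 1.47, which leaves out 0 although edgeR's unadjusted p was 0.0672. The intervals are normal approximations and are narrower than edgeR's test implies. These 3 comparisons share mice with each other.

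After 32 weeks the diets overlapped for every member. H2-Aa reached 88.3, 136, 153, 265 and 90.1 CPM in SO mice 1 to 5, 144, 155, 127, 85.2 and 154 in PF mice, and 119, 155, 190, 73.1 and 149 in LO mice. H2-Ab1 reached 66.3, 70.0, 81.0, 136 and 44.9 CPM in SO, 120, 79.5, 69.3, 47.9 and 83.3 in PF, and 89.1, 85.5, 101, 38.6 and 79.0 in LO mice. H2-Eb1 reached 76.3, 101, 112, 188 and 63.3 CPM in SO, 130, 108, 86.6, 59.7 and 108 in PF, and 101, 110, 141, 54.1 and 108 in LO mice. SO mouse 4 was far above the rest of its group for the 3 chains, while PF mouse 4 and LO mouse 4 were the lowest of theirs. Cd74 reached 150, 197, 235, 347 and 133 CPM in SO, 238, 208, 164, 130 and 225 in PF, and 231, 238, 293, 110 and 208 in LO mice. Ciita reached 2.82, 4.4, 4.68, 10 and 2.5 CPM in SO, 2.57, 6.31, 3.53, 2.3 and 3.02 in PF, and 4.68, 4.02, 6.0, 1.96 and 3.53 in LO mice. Every SO and PF mouse was then above the highest SO mouse of 12 weeks for Cd74 and Ciita, as was every LO mouse except mouse 4 for Cd74.

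H2-DMa reached 9.57, 9.19, 10.8, 13.6 and 7.21 CPM in SO, 15, 9.9, 8.83, 8.3 and 8.68 in PF, and 12.1, 10.5, 10.8, 7.74 and 10.5 in LO mice after 32 weeks. H2-DMb1 reached 12.1, 11.4, 12.5, 15.6 and 7.56 CPM in SO, 16.1, 11.6, 8.68, 8.52 and 12.6 in PF, and 12.1, 11.1, 12.2, 6.97 and 12.5 in LO mice. PF mouse 1 was the highest of all 15 mice for both genes, and the ranges of the 3 diets ran through each other. H2-DMb2 reached 1.53, 3.3, 2.72, 11.7 and 1.21 CPM in SO, 2.02, 3.61, 2.78, 1.56 and 2.23 in PF, and 1.93, 1.74, 3.15, 1.04 and 2.55 in LO mice. H2-Ob reached 1.4, 4.64, 2.92, 18.1 and 1.68 CPM in SO, 1.75, 7.75, 5.03, 1.76 and 2.96 in PF, and 1.7, 2.18, 4.75, 1.29 and 2.62 in LO mice. H2-Oa reached 0.681, 0.655, 0.617, 2.85 and 0.441 CPM in SO, 0.999, 0.812, 0.789, 0.398 and 0.528 in PF, and 0.392, 0.666, 1.13, 0.491 and 0.773 in LO mice. SO mouse 4 had the highest value of all 30 mice in these 3 genes.

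None of the 3 diet comparisons after 32 weeks had a member past edgeR's adjusted threshold (0 of 10 each, background 0.0% each) or at an unadjusted p under 0.05 (background 10.8% for PF against SO, 8.6% for PF against LO and 3.48% for LO against SO). DESeq2 called 0 of 10 in each, with 0.726%, 0.585% and 0.0234% of its genes called in the same order. The median log2 fold change was −0.11 for PF against SO, 0.02 for PF against LO and −0.09 for LO against SO. For PF against SO, the log2 difference of H2-Ab1 was 0.04 with a 95% interval of −0.56 to 0.64, that of Cd74 −0.11 with an interval of −0.65 to 0.43, and that of H2-Ob −0.56 with an interval of −1.83 to 0.71. These intervals leave room for differences in either direction, so equal levels are not shown. Without SO mouse 4 the median of PF against SO was 0.17 and 9 of 10 members were higher in PF, and without PF mouse 4 it was 0.01, with 6 of 10 higher. For LO against SO the median was 0.19 without SO mouse 4 and 0.05 without LO mouse 4.

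In the SO group class II genes rose with time. Between 12 and 32 weeks 8 of 10 members rose in edgeR's test over 16605 genes, in which 5.25% of all genes were called higher, and the members' median log2 fold change was 1.33 against −0.00 over all genes. On the log2 scale H2-Ob rose most, by 2.62 ± 0.705 (SE) with an adjusted p of 0.0257 in edgeR, followed by H2-DMb2 with 2.05 ± 0.557. Ciita rose by 1.76 ± 0.409 with an adjusted p of 0.0113 in edgeR. H2-Aa (1.33 ± 0.297, adjusted p = 0.00948 with edgeR), H2-Eb1 (1.33 ± 0.3), H2-Ab1 (1.20 ± 0.305), Cd74 (1.17 ± 0.285) and H2-DMb1 (0.74 ± 0.195) rose as well on the log2 scale. H2-Oa had 1.79 ± 0.571 (adjusted p = 0.0568 with edgeR) and H2-DMa 0.35 ± 0.185 (adjusted p = 0.304 with edgeR), and neither passed. The groups did not overlap for 7 members (Cd74, Ciita, H2-Aa, H2-Ab1, H2-Eb1, H2-Oa and H2-Ob), with the older mice higher, which held for 5.13% of all genes. DESeq2 called 9 of 10, all but H2-DMa, with 6.09% of its genes called higher.

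The calls in SO mice depended on single libraries. Without SO mouse 4 of 32 weeks, 0 of 10 members passed edgeR's adjusted test (smallest adjusted p = 0.0636 with edgeR, background 1.09%). All 10 fold changes stayed above 0 there, and the median was 0.99 on the log2 scale. At an unadjusted p under 0.05 there were 8 of 10. The share of all genes was not counted in that fit, and with all mice 12.6% were at that level and higher. Without SO mouse 4 of 12 weeks 4 of 10 were called, against a background of 2.41%. Leaving out each of the other 8 SO mice gave 6 to 9 calls (background 5.25% with all mice). Without the 6 mice numbered 1, 8 of 10 were called (background 5.77%). The SO mice of 12 weeks enter this comparison and the PF comparison at 12 weeks alike, so the 2 results are not separate evidence of a low level in that group.

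In LO mice all 10 members had fold changes above 0 between 12 and 32 weeks, with a median of 0.60 on the log2 scale, and 0 of 10 passed edgeR's adjusted test, in which 2.7% of all genes were called. At an unadjusted p under 0.05 there were 5 of 10, all higher after 32 weeks (11.4% of all genes). Cd74 (0.84 ± 0.284, SE) and H2-Aa (0.86 ± 0.294) were the closest on the log2 scale, with adjusted p of 0.0876 and 0.0927 in edgeR. DESeq2 called these 2 genes, with 4.34% of its genes called higher. Here too single mice decided the count, which was 3 of 10 without LO mouse 4 of 12 weeks (Cd74, H2-Aa and H2-Eb1, background 3.02%, median 1.06) and 4 of 10 without LO mouse 4 of 32 weeks (with H2-Ab1 added, background 4.58%, median 0.77). In PF mice 0 of 10 passed edgeR's adjusted test between the time points (background 0.0301%), 0 of 10 had an unadjusted p under 0.05 (background 10.2%) and DESeq2 called 0 of 10 (background 0.295%). The PF median was −0.04 on the log2 scale, with 95% intervals of −0.57 to 0.61 for H2-Ab1, −0.65 to 0.45 for Cd74 and −1.03 to 0.51 for Ciita.

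The summed epithelial markers also differed between the time points in the diets in which class II values were higher with time. The sum of the 9 markers was 226399 to 321444 CPM after 12 and 144993 to 172009 CPM after 32 weeks in SO mice, and the mice of the time points did not overlap. In LO mice it was 204304 to 326642 and then 107702 to 200173 CPM, again without overlap, and in PF mice 179763 to 336352 and then 125657 to 298815 CPM, with overlap. Most of the sum is Sbp, the spermine-binding protein of VP secretion, and Spink1, a secreted protease inhibitor, at 169765 and 46827 CPM on average. Sbp fell with time by 0.96 ± 0.219 (SE) on the log2 scale in SO mice (adjusted p = 0.01 with edgeR) and by 0.81 ± 0.218 in LO mice (adjusted p = 0.041 with edgeR), and had −0.17 ± 0.217 in PF mice. None of the other 8 markers passed edgeR's adjusted test in any diet, Epcam, a general epithelial marker, having −0.02 ± 0.0965 on the log2 scale in SO mice. After 12 weeks the sum overlapped between PF and SO mice, with 0 of 9 markers at an unadjusted p under 0.05. The part of the epithelium in the class II results was not tested.

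The difference between the diets in how class II genes changed with time was tested directly. The PF minus SO difference had a lower value after 32 than after 12 weeks for all 10 members, with a median change of −1.27 on the log2 scale. None passed edgeR's adjusted test (0 of 10, background 0.0%). At an unadjusted p under 0.05 there were 9 of 10 in the lower direction, where 6.65% of all genes were. Ciita had the smallest adjusted p, with −2.02 ± 0.564 (SE) and an adjusted p of 0.237 in edgeR, and DESeq2 called 0 of 10 (background 0.224%). Without SO mouse 4 of 32 weeks the median change was −0.97 and 6 of 10 had an unadjusted p under 0.05. The share of all genes was not counted in that fit. For PF minus LO the median change was −0.74, with 0 of 10 past edgeR's adjusted test (background 0.0%), 1 of 10 at an unadjusted p under 0.05 in the lower direction (Cd74, −0.94 ± 0.399 on the log2 scale, background 4.19%) and 0 of 10 called by DESeq2 (background 0.0702%). Whether LO and SO mice differed in their change with time was not tested.

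**Figure D3:**
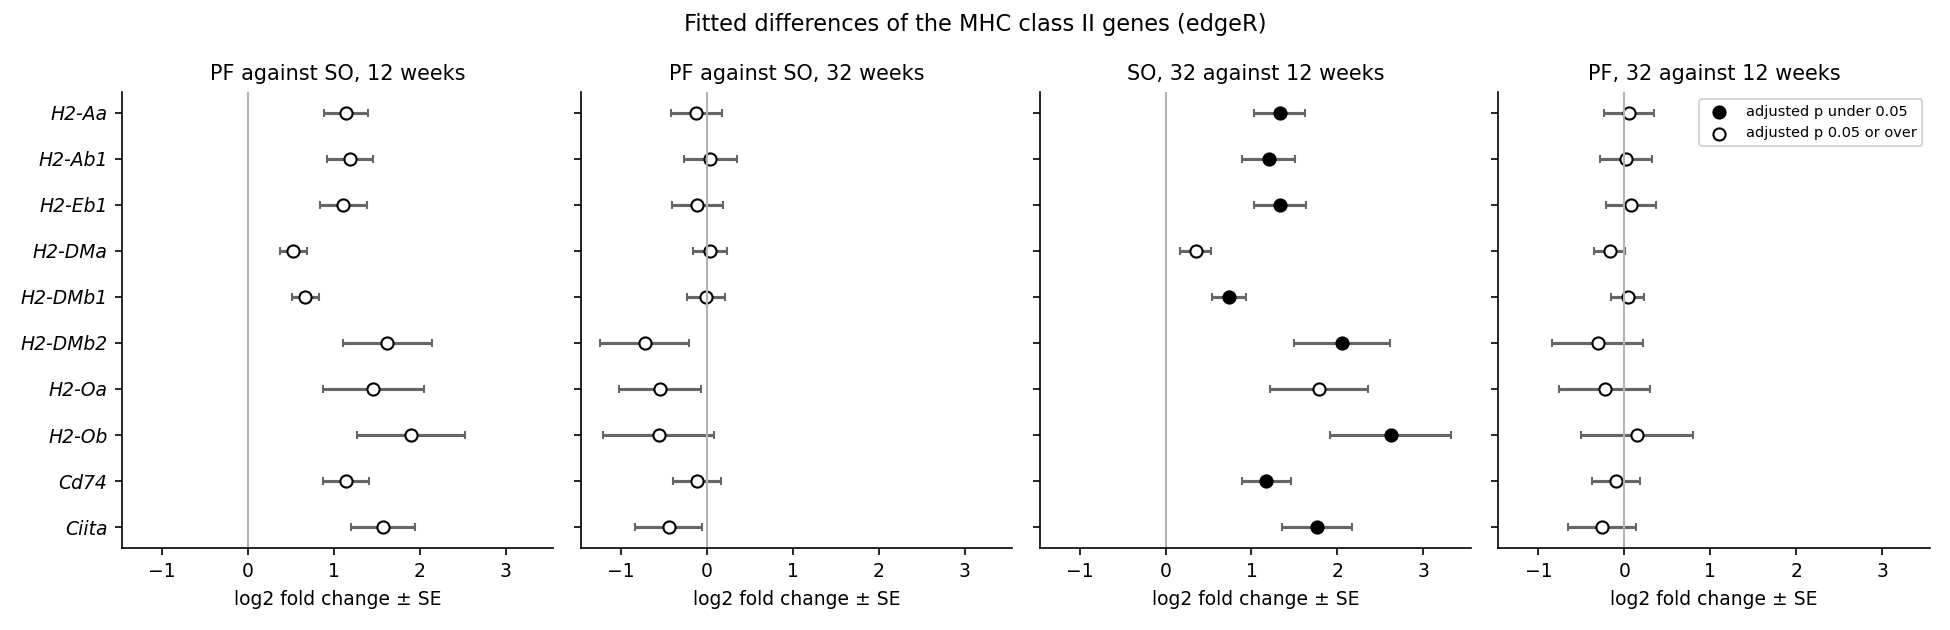
Log2 fold change ± SE from edgeR for each class II gene in PF against SO mice after 12 and after 32 weeks and between the time points in SO and PF mice, with filled points for an adjusted p under 0.05. The 8 filled points are all in the SO panel, the 12 week PF points lie between 0.53 and 1.90 without being filled, and the PF points between the time points lie between −0.31 and 0.15.

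Among mice of one group, the members varied together. With log2 CPM centred on the 6 group means, each of the 9 other members correlated with H2-Ab1 over 30 mice, with Pearson's r of 0.972 for H2-Eb1, 0.947 for Cd74, 0.909 for H2-Aa, 0.875 for H2-DMb1, 0.84 for H2-DMa, 0.834 for Ciita, 0.785 for H2-Oa, 0.708 for H2-DMb2 and 0.581 for H2-Ob. Spearman's rho ran from 0.494 for H2-Ob to 0.93 for H2-Eb1. Benjamini-Hochberg adjusted permutation p over the 9 relations was at most 0.00563 for r and 0.0162 for rho, both for H2-Ob (100000 permutations within groups, two-sided). Without the 2 mice farthest from the median of H2-Ab1, PF mouse 5 and LO mouse 2 of 12 weeks, r was 0.561 to 0.96. Within the 12 week mice r was 0.579 to 0.971, and within the 32 week mice 0.583 to 0.972. The values share libraries and scaling.

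The genes formed a looser set than these values alone show. The closest pair was H2-Eb1 and Cd74 (r = 0.981), and H2-DMa and H2-DMb1, the chains of the main editor, were close too (r = 0.901). H2-DMb2 and H2-Ob correlated at 0.882. H2-DMa and H2-Ob had the lowest r of all pairs, 0.261, and H2-DMb1 and H2-Ob 0.346. The ratio of H2-Aa to H2-Ab1 CPM stayed between 1.2 and 2.01 over the 30 mice and that of H2-Eb1 to H2-Ab1 between 1.06 and 1.44, whereas that of H2-Ob to H2-Ab1 went from 0.0131 to 0.133.

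**Figure D4:**
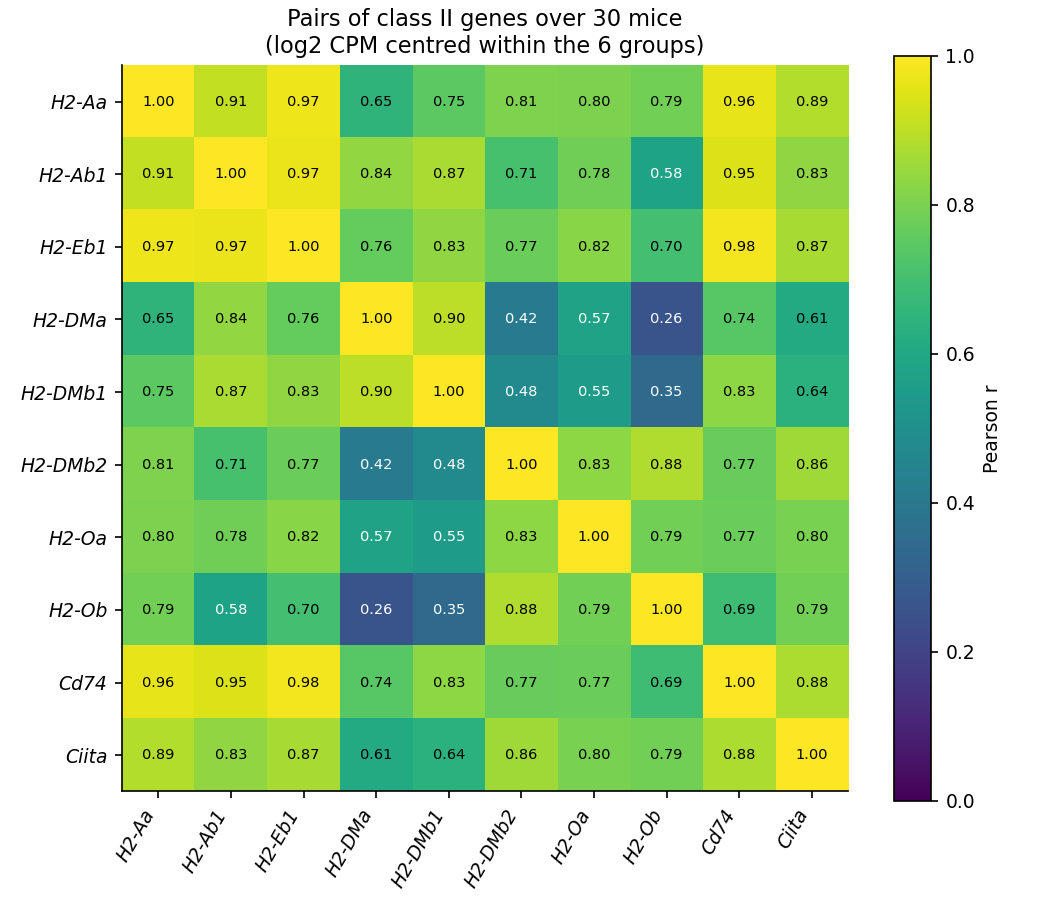
Pearson's r between the class II genes over 30 mice, from log2 CPM centred on the 6 group means. H2-Aa, H2-Ab1, H2-Eb1 and Cd74 form a block with r of 0.909 or above, and the lowest r, 0.261, is between H2-DMa and H2-Ob.

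Markers of cells that carry class II were followed beside these genes. The summed level of 8 B cell markers (Ms4a1, Cd79a, Cd79b, Pax5, Cr2, Fcer2a and Blk among them) was 1.75 to 6.08 CPM in SO, 2.51 to 47.4 in PF and 2.33 to 26.0 in LO mice after 12 weeks, and 5.29 to 101 in SO, 10.1 to 31.2 in PF and 6.51 to 31.8 in LO mice after 32 weeks. SO mouse 4 of 32 weeks had the 101 CPM, PF mice 2 and 3 of 12 weeks 47.4 and 34.8, and LO mouse 4 of 12 weeks 26.0. Cr2 had no counts in 4, Pax5 in 2 and Fcer2a in 1 of the 30 mice. The sum of 11 macrophage markers was 201 to 263 CPM in SO, 251 to 492 in PF and 202 to 357 in LO mice after 12 weeks, and 275 to 564 in SO, 307 to 588 in PF and 258 to 876 in LO mice after 32 weeks, and none of the 11 was at 0 in any mouse. The sum of 9 dendritic cell markers was 12.6 to 16.2 CPM in SO, 16.4 to 27.2 in PF and 11.8 to 20.6 in LO mice after 12 weeks, and 19.7 to 39.8, 18.0 to 29.9 and 14.3 to 29.3 in the same order after 32 weeks. Ptprc, the CD45 gene of all leukocytes, was at 6.84 to 9.68 CPM in SO and 10.5 to 31.1 in PF mice after 12 weeks, and at 14.4 to 64.9 in SO mice after 32 weeks.

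These leukocyte markers were tested in the same comparisons as the class II genes. In SO mice 5 of 8 B cell, 3 of 4 plasma cell, 4 of 9 dendritic cell, 6 of 11 macrophage and 7 of 7 T cell markers rose between 12 and 32 weeks in edgeR's adjusted test (background 5.25%). The log2 rise of Ptprc was 1.85 ± 0.369 (SE), with an adjusted p of 0.00501 in edgeR. These marker calls were not counted again without SO mouse 4 of 32 weeks, without which 1.09% of all genes were called higher. The 7 T cell markers summed to 45.4 CPM in that mouse and to 8.66 to 13.7 in the other SO mice of 32 weeks. After 12 weeks they summed to 2.95 to 5.5 CPM in SO mice. Ptprc was at 64.9 CPM in that mouse and at 14.4 to 28.7 in the others. In PF compared to SO mice after 12 weeks none of the leukocyte markers passed edgeR's adjusted test (background 0.0%). At an unadjusted p under 0.05 there were 5 of the 5 B cell markers tested, 2 of 4 plasma cell, 10 of 11 macrophage, 6 of 9 dendritic cell and 5 of 7 T cell markers, all higher in PF (background 6.14%). DESeq2 called 7 of 11 macrophage, 3 of 9 dendritic cell, 1 of 7 T cell, 1 of 4 plasma cell and 0 of 8 B cell markers there, and Ptprc (background 1.27%). Ptprc had 1.28 ± 0.298 there (SE, adjusted p = 0.138 with edgeR). In LO mice between the time points 3 of 4 plasma cell and 1 of 9 dendritic cell markers passed edgeR's adjusted test as higher (background 1.74%), and none of the B cell, macrophage or T cell markers did. At an unadjusted p under 0.05 there were 10 of 11 macrophage markers, all higher, and 0 of 8 B cell markers (background 11.4%). DESeq2 called 8 of 11 macrophage and 0 of 8 B cell markers in LO mice (background 4.34%). In PF mice between the time points no marker of these leukocytes had an unadjusted p under 0.05 (background 10.2%). T cells of mice do not as a rule carry class II, and their markers were listed as those of another leukocyte. The part of these cells in the class II results was not tested.

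The members were also correlated with the marker sums among mice of one group, in 20 correlations chosen after the data had been seen. H2-DMb2 (r = 0.947, rho = 0.92) and H2-Ob (r = 0.902, rho = 0.889) had the highest correlations with the B cell sum over 30 mice (adjusted permutation p = 6.67e-05 for both r). H2-DMa had r = 0.301 and rho = 0.313 (adjusted permutation p = 0.173 for r) and H2-DMb1 r = 0.363 and rho = 0.341 (adjusted permutation p = 0.0923 for r). Without SO mouse 4 of 32 weeks and LO mouse 4 of 12 weeks, the mice farthest from the median of the B cell sum, r was 0.932 for H2-DMb2, 0.86 for H2-Ob, 0.268 for H2-DMb1 and 0.147 for H2-DMa. With the macrophage sum the highest r was that of Cd74, 0.697 (rho = 0.58, adjusted permutation p = 0.001 for r), followed by H2-Aa at 0.682 and Ciita at 0.675. These 3 genes correlated as highly with the B cell sum, at 0.693, 0.73 and 0.778 in the same order. H2-Oa had the lowest r with the macrophage sum, 0.369 (rho = 0.307, adjusted permutation p = 0.064 for r). Without LO mouse 4 and SO mouse 1 of 32 weeks Cd74 had r = 0.611 and H2-Oa 0.376. Within time points H2-Ob had r = 0.887 at 12 and 0.935 at 32 weeks with the B cell sum, and Cd74 0.689 and 0.732 with the macrophage sum. The difference between these correlations was not tested.

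**Figure D5:**
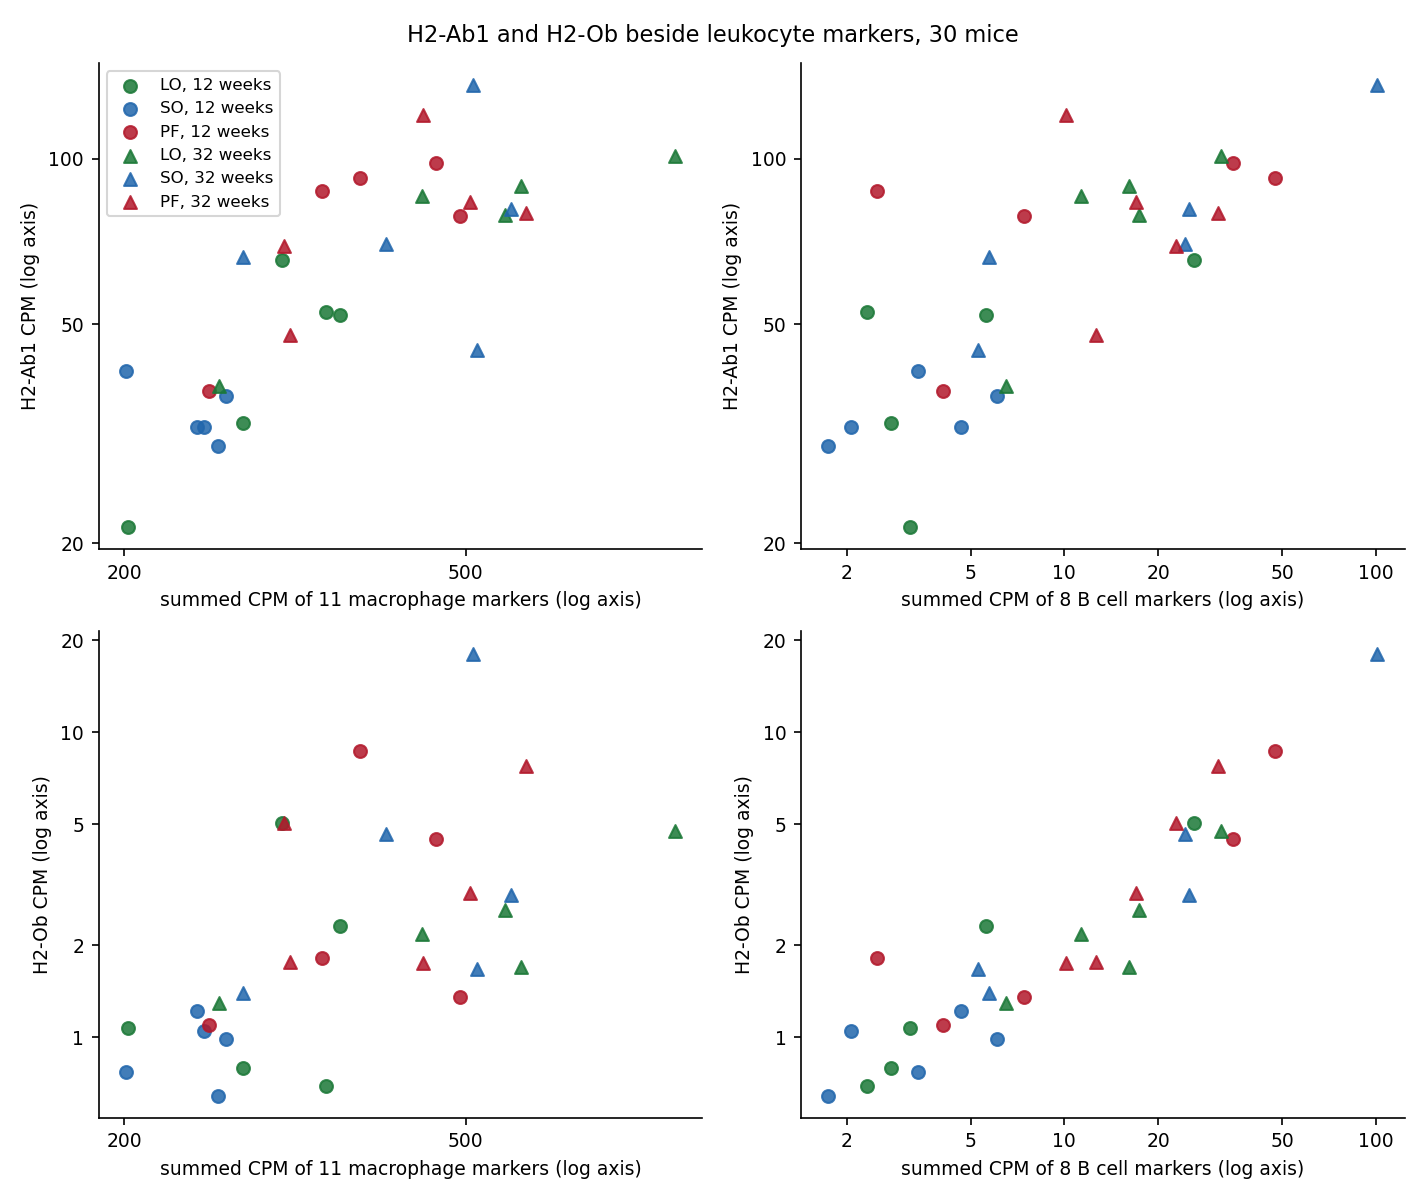
H2-Ab1 (top) and H2-Ob (bottom) in CPM against the summed CPM of 11 macrophage markers (left) and 8 B cell markers (right) in 30 mice, with all axes logarithmic, circles for 12 and triangles for 32 weeks. H2-Ob lies along a narrow band against the B cell sum, from the SO mice of 12 weeks up to SO mouse 4 of 32 weeks at 18.1 CPM, and scatters against the macrophage sum.

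Other genes of the pathway were taken from 6 lists. The factors of the class II promoters (Rfx5, Rfxap, Rfxank, Nfya, Nfyb, Nfyc and Creb1), which are expressed in most cells, had 0 of 7 called in each comparison by edgeR, and their sum lay between 159 and 191 CPM in all 30 mice. DESeq2 called 1 of the 7, Rfx5, in one comparison, where it was lower in PF than in SO mice after 32 weeks (−0.28 on the log2 scale, adjusted p = 0.0324 with DESeq2). At an unadjusted p under 0.05 there were 0 of 7 in PF against SO at 12 weeks (background 7.99%). Between the time points in SO mice there were 3 of 7, all higher (background 12.6%). Creb1, the list's most abundant gene at 39.9 CPM, had a log2 fold change of 0.10 ± 0.0835 (SE) in PF against SO mice. Of the interferon-γ axis (Ifng, its receptor chains, Jak1, Jak2 and Irf1 among its 7 genes), 0 of the 6 genes tested were called by edgeR in either comparison. At an unadjusted p under 0.05 and higher there were 1 of 6 in PF against SO mice after 12 weeks (background 6.14%). Between the time points in SO mice there were 3 of 6 (background 12.6%). DESeq2 called 0 genes of the axis in the first comparison (background 1.27%) and 1, higher, in the second (background 6.09%). Ifng itself had 60 counts in all, with 9 mice at 0. Jak1, a kinase of the receptor and the most abundant of the list at 147 CPM, had a log2 difference of −0.03 ± 0.0815 (SE) in PF against SO mice after 12 weeks.

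Of 7 endosomal processing genes, 2 rose in SO mice with time in edgeR's adjusted test (background 5.25%). Ctss, cathepsin S, which cuts the last part of the invariant chain, had a log2 rise of 1.67 ± 0.306 (SE) with an adjusted p of 0.00289 in edgeR, and Lgmn, an asparaginyl endopeptidase of the endosome, of 0.77 ± 0.199 with an adjusted p of 0.0208 in edgeR. Ctss was at 22.6, 21.0, 22.9, 21.4 and 21.3 CPM in SO and 84.9, 50.4, 59.1, 40.5 and 23.9 in PF mice after 12 weeks. All PF mice were above all SO mice, PF mouse 5 again by little, and the PF mice differed by 1.25 ± 0.274 (SE) on the log2 scale, with an adjusted p of 0.138 in edgeR and 0.0025 in DESeq2. Ctsd, cathepsin D, the most abundant of them at 762 CPM, had −0.01 ± 0.0723 there. Of 2 ubiquitin ligases that remove class II from the surface, March1, which acts in dendritic and B cells, had a log2 rise of 1.63 ± 0.425 (SE) with time in the SO group, with an adjusted p of 0.0212 in edgeR, and March8, widely expressed at 109 CPM, had −0.07 ± 0.0631. In PF against SO mice March1 had 1.08 ± 0.403 (SE, adjusted p = 0.405 with edgeR).

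Of 4 costimulatory genes, whose products T cells read beside class II, 2 rose with time in the SO group (background 5.25%). On the log2 scale Cd40 rose by 1.95 ± 0.413 (SE) with an adjusted p of 0.00734 in edgeR and Cd86 by 1.28 ± 0.276 with an adjusted p of 0.00765 in edgeR. In PF against SO mice after 12 weeks Cd40 had 1.47 ± 0.334 (SE, adjusted p = 0.138 with edgeR). Icosl, the most abundant at 56.9 CPM, had −0.13 ± 0.184 there and −0.09 ± 0.194 between the time points in SO mice. H2-Eb2, a further β chain gene of the region, was at 0.168, 0.0308, 0, 0.0919 and 0.174 CPM in SO mice after 12 weeks and at 0.0973, 0.982, 0.561, 3.36 and 0.176 after 32 weeks. These were 0 to 6 counts per mouse after 12 weeks and 3 to 112 after 32 weeks. The groups overlapped, and SO mouse 4 of 32 weeks had the 112 counts. The difference on the log2 scale was 3.42 ± 0.999 (SE) with an adjusted p of 0.038 in edgeR. At such counts it is not taken as support for a rise. H2-Eb2 did not pass the filter among the mice of 12 weeks.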

How the data were processed

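RNA from the ventral prostate was sequenced as paired reads of 100 bases, stranded and poly(A)-selected, in 30 mice. The submitters' processing notes name GRCm38.p6, TopHat2, HTSeq and DESeq2, and the study's methods name HTSeq for counting and DESeq2. Versions, annotation release and strand setting are not given in the sources used here. Symbols and positions came from GENCODE M21, which named 37607 of the identifiers. The deposited values are raw counts per gene identifier, made by the authors without normalisation. Rows that name no gene were left out of library sizes: no feature held 6.67 to 12.22% and not unique 15.98 to 20.26%.

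Groups were taken from the labels, with 5 mice each. Nothing in the labels ties a number to a litter or day. Counts were tested with edgeR's quasi-likelihood test (edgeR 4.0.16, R 4.3.3, filterByExpr, TMM, default prior count) over all genes that passed the filter, within each time point for diets and over all 30 mice for time and changes, with Benjamini-Hochberg adjustment. A gene was called at an adjusted p under 0.05. SEs were the log2 fold change divided by the square root of F. Intervals were normal approximations from these SEs at a nominal 95%, which is narrower than the F test implies. Scripts were tested on simulated counts with known changes.

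Alternatives were DESeq2 1.42.0 (Wald test), other size factors and filters, the replicate number as a block, a threshold of 0.1 and each mouse left out. The DESeq2 fit with the block, the fits without mice numbered 1, the marker correlations and the promoter motifs were later additions, chosen with the data in view. The 10 members and the gene lists were chosen with earlier results of these data known. Named were all members, and of each pathway list the genes past the threshold, the most abundant and the one with the smallest p in PF against SO at 12 weeks, except for items that are not reported here. Rfx5, past the threshold in DESeq2 only, was named after its values were seen. Correlations used log2 CPM (prior count 2 for genes, none for marker sums) centred on group means and permutations within groups (100000, two-sided, the smallest possible p being 1e-05).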

Additional observations from a re-analysis of the deposited data

Results flagged for a closer look

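In each of the 60 combinations of a member and a group of 5 mice, the highest and the lowest mouse were set against the others by Dixon's test at the 95% level, and 9 combinations held a mouse that stood apart. The nominal rate of about 1 in 20 holds for normal values. The members vary together and CPM were not log-transformed here, so the 9 cannot be read as an excess over chance. SO mouse 4 of 32 weeks stood apart in 4 of the 9. It had 18.1 CPM of H2-Ob with the next mouse at 4.64, 11.7 CPM of H2-DMb2 with the next at 3.3, 2.85 CPM of H2-Oa with the next at 0.681, and 10 CPM of Ciita with the next at 4.68. The same mouse had the highest summed B cell markers of all 30, 101 CPM, whose part in these values was not tested. SO mouse 5 of 12 weeks stood above its group for H2-DMb2, at 1.51 CPM with the next mouse at 0.905, and for Ciita, at 1.95 CPM with the next at 1.45. LO mouse 4 of 12 weeks had 1.43 CPM of H2-Oa with the next at 0.409. PF mouse 1 of 32 weeks had 15 CPM of H2-DMa with the next at 9.9. LO mouse 4 of 32 weeks stood below its group for H2-DMb1, at 6.97 CPM with the next lowest at 11.1.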

How the results depend on the processing

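In the 9 correlations with H2-Ab1 every r stayed above 0 with DESeq2's size factors and within each time point. Of the alternatives other than leaving out mice, none turned the direction of a member's fold change. In PF against SO at 12 weeks the count of members called, 0 in edgeR, was 6 with the DESeq2 Wald test and 4 with DESeq2 and the replicate block (Ciita, H2-Aa, H2-Ab1 and H2-DMb1, against 0.793% of all genes). In LO mice between the time points the count was 2 with DESeq2, against 0 in edgeR. It was also 2 in edgeR at an adjusted p under 0.1, a level at which the share of all genes was not counted. Both DESeq2 calls were lost with the block (H2-Aa 0.0693 and Cd74 0.077 as DESeq2 adjusted p), where 5.19% of its genes were called higher. In SO mice between the time points the block in DESeq2 took the calls from 9 to 8, H2-Oa being lost (0.0523 as DESeq2 adjusted p). With that block 7.16% of its genes were called higher. The causes were not tested. With the replicate number as a block, edgeR called 0 members in PF against SO at 12 weeks. It called 7 in SO mice between the time points, where 5.35% of all genes were called higher. H2-DMb2 was lost there (1.84 on the log2 scale, adjusted p = 0.0557 with edgeR), and the other counts were 0. Same-numbered mice of the 9 pairs of groups had correlations of −0.403 to 0.533, with 22 of 45 over 0.1 and no pair of groups with all 5 over it, so the numbers as a whole were not taken to pair the mice. The mice numbered 1 did deviate together, with correlations of 0.28 to 0.533 in all 9 pairs of groups. A filter of at least 10 counts in every mouse drops H2-Oa, which leaves 9 members.

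Leaving out mice gave counts of 0 to 6 members in PF against SO at 12 weeks (6 without PF mouse 5, background 0.812%). In SO mice with time it gave 0 to 9, with 0 without mouse 4 of 32 weeks (background 1.09%) and 4 without mouse 4 of 12 weeks (background 2.41%). In LO mice with time it gave 0 to 4, with 3 without mouse 4 of 12 weeks (background 3.02%) and 4 without mouse 4 of 32 weeks (background 4.58%). The count was 0 in the 8 other comparisons. These counts and the ranges below take in the fits without the mice numbered 1. Over these fits the median log2 fold change of PF against SO at 12 weeks was 1.04 to 1.39. The direction turned for members with small differences, whose log2 fold changes then ranged as follows. In PF against SO at 32 weeks the range was H2-Aa −0.31 to 0.33, H2-Ab1 −0.23 to 0.45, H2-Eb1 −0.35 to 0.32, H2-DMa −0.18 to 0.23, H2-DMb1 −0.18 to 0.19, H2-DMb2 −0.99 to 0.3, H2-Oa −0.84 to 0.41, H2-Ob −1.06 to 0.72, Cd74 −0.31 to 0.25 and Ciita −0.8 to 0.11. In PF against LO at 32 weeks the range was H2-Aa −0.19 to 0.14, H2-Ab1 −0.17 to 0.2, H2-Eb1 −0.21 to 0.14, H2-DMa −0.21 to 0.06, H2-DMb1 −0.08 to 0.22, H2-DMb2 −0.02 to 0.43, H2-Oa −0.27 to 0.31, Cd74 −0.32 to 0.04 and Ciita −0.51 to 0.01. In LO against SO at 32 weeks the range was H2-Aa −0.25 to 0.4, H2-Ab1 −0.16 to 0.44, H2-Eb1 −0.23 to 0.39, H2-DMa −0.07 to 0.26, H2-DMb1 −0.28 to 0.14, H2-DMb2 −1.28 to 0.1, H2-Oa −0.99 to 0.31, H2-Ob −1.72 to 0.08, Cd74 −0.1 to 0.45 and Ciita −0.47 to 0.35. In PF mice with time the range was H2-Aa −0.09 to 0.2, H2-Ab1 −0.16 to 0.18, H2-Eb1 −0.08 to 0.23, H2-DMb1 −0.1 to 0.15, H2-DMb2 −0.53 to 0.15, H2-Oa −0.49 to 0.33, H2-Ob −0.28 to 0.84 and Cd74 −0.27 to 0.08. In LO mice with time the range was H2-Ob −0.03 to 1.06. In PF against LO at 12 weeks the range was H2-Oa −0.18 to 1.53 and H2-Ob −0.03 to 1.69. In LO against SO at 12 weeks the range was H2-DMa −0.02 to 0.16 and H2-Oa −0.1 to 1.18. In the change of PF minus LO the range was H2-Ob −0.9 to 0.48.

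Depth limits H2-Oa most, at 4 to 95 counts per mouse. With 5 mice per group, the 95% intervals of the diet differences after 32 weeks hold values on both sides of 0 for every member, so equal levels are not shown. Age, time on the diet and any processing batch of the time points, which the labels do not give, cannot be told apart.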

Other observations

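Among 16595 other genes, those most like the class II members over 30 mice, by the mean Pearson's r of log2 CPM centred on group means with the 10 members, were Cd52 (0.838), Rac2 (0.826), Hcls1 (0.825), Itgb7 (0.816) and Coro1a (0.797). Cd52 encodes a surface glycoprotein of lymphocytes and other leukocytes, Rac2 a small GTPase of blood cells, Hcls1 a cortactin relative of blood cells, Itgb7 an integrin β chain of lymphocytes and Coro1a an actin-binding protein of leukocytes. Their r with H2-DMa was lower, 0.602 to 0.801, than their r with H2-Eb1, 0.873 to 0.927.

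Per unit of Ptprc, the CD45 gene, H2-Ab1 was at 3.36 to 6.01 in SO, 2.96 to 6.11 in PF and 2.74 to 4.59 in LO mice after 12 weeks, as ratios of CPM. After 32 weeks the ratio was 2.1 to 4.6 in SO, 2.17 to 7.05 in PF and 2.47 to 4.34 in LO mice. Its median went from 3.74 to 2.43 in SO, from 3.62 to 3.34 in PF and from 3.18 to 3.3 in LO mice. The ranges overlapped, and no test was made of them. Over all 30 mice the ratio of H2-DMa to H2-DMb1 lay between 0.687 and 1.24.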
